A study of Mus musculus with 13 samples.

Results

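Whole lower incisors of mice with an altered vitamin D receptor were compared with those of control mice, taking 2 receptor mutants together. All 8 mutant libraries, 3 of genotype VDRgem and 5 of genotype VDR-null, were set against all 5 control libraries, which is 13 of the 13 libraries of the series. The mutants were chosen by their genotype label, and each genotype counted with a weight of 0.5, so that the 5 VDR-null libraries did not outweigh the 3 of VDRgem. The question was which transcripts were shifted the same way in both mutants.

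The mice were male and 5 days old, and poly-A RNA was sequenced with a stranded kit. The control mice are wild-type for the receptor. VDRgem is a receptor allele that no longer answers calcitriol but is activated by synthetic ligands of the gemini type. The VDR-null allele leaves no functional receptor. Each mutation is present in the whole body, the strain background is not given in the sources used here, and the incisors are called independent without naming the animal behind each. The p-values therefore measure the spread between these incisors, and no treatment is labelled for any group.

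The vitamin D receptor is a nuclear receptor that pairs with a retinoid X receptor and binds a repeated hexamer in DNA, called the vitamin D response element. Bound by the hormone calcitriol it raises genes such as Cyp24a1, which breaks the hormone down, and genes of calcium uptake. Mice and humans without a working receptor develop rickets, and in teeth their enamel and dentin are poorly mineralised. The mouse incisor grows throughout life, so one tooth holds dividing progenitors, secreting and maturing ameloblasts, odontoblasts, pulp, vessels, nerves and immune cells. In whole teeth, fewer cells of a type and less RNA per cell cannot be told apart.

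Depth ran from 20405188 to 87783466 counts per library, and 17837 of 34709 genes were tested. Levels are given in CPM, a gene's counts per fixed total of scaled library counts, and the level of a gene list is the mean log2 CPM of its members. Tooth genes were present in every library, with list levels from 8.60 to 9.67 for secretory ameloblasts and from 7.65 to 8.69 for odontoblasts. Several libraries stood apart. Oral keratinocyte genes, which mark gum epithelium, were at 8.82 in VDRgem 1 and 7.02 in VDRgem 2, against 0.79 to 3.92 in the other 11 libraries. Skeletal muscle genes lay 4.70 above the control mean in VDR-null 3 and 3.38 above it in VDRgem 1. Relative to the control mean, VDR-null 2 was at -0.60 in dental papilla genes and at -1.03 in mitosis genes, as low as VDRgem, whereas the other 4 VDR-null libraries were at -0.07 to -0.03 in papilla genes. These values stand beside the results they touch, and values without VDRgem 1 and 2 are given beside several of the called genes and as a range for all of them at the end. That fit leaves VDRgem 3 as the only VDRgem library, so it is assumed to vary like the other groups and carries the whole VDRgem weight. Counts of called genes with other libraries left out, with library weights or with the oral keratinocyte level as a covariate are given further on. The part of these libraries in the results was not tested beyond these fits.

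Vdr, the altered gene, was read out first. It lies on chromosome 15 from 97854425 to 97910630 on the minus strand in the mm10 assembly. Its level was 176, 166, 154, 180.3 and 142 CPM in controls, 107, 205 and 179 CPM in VDRgem and 213, 253, 259.9, 204 and 281 CPM in VDR-null. The 5 VDR-null libraries and VDRgem 2 lay above every control, VDRgem 3 lay among the controls and VDRgem 1 below them. Weighted equally by genotype, the mutants lay 0.25 above control in log2 CPM, and a two-sided exact permutation test over 72072 arrangements gave p = 0.268. Without VDRgem 1 the difference was 0.39 with an exact permutation p of 0.0304. Reads were summed over the whole gene, so a mutant transcript that is still made counts like a normal one, and the Vdr level does not check the genotype labels.

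With both mutants together, 34 of 17837 genes passed an adjusted p of 0.05, which is 0.191% of the genes tested, and 17 rose and 17 fell (0.0953% each way). The largest rise among the genes at 1 CPM or more with no overlap between mutants and controls was that of Cd163, a scavenger receptor of macrophages, at 2.91-fold. Has2, which makes hyaluronan, rose 1.81-fold, and the lysosomal protease Ctsc rose 1.53-fold. Krt8, a keratin of simple epithelia, fell to 0.368 of its control level, and the Wnt antagonists Sfrp5 and Sfrp2 fell to 0.215 and 0.438. Rpap3, a chaperone partner whose gene lies 149 kb from Vdr, fell to 0.644, and the matrix collagen gene Col26a1 to 0.665. The size of the 34 log2 changes ran from 0.328 to 2.75, against a median size of 0.141 over all genes.

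Of the 34 genes, 33 had the same sign in each mutant, 24 of them with the larger change in VDRgem and 9 with the larger change in VDR-null. The genes were chosen by the mean change of both mutants, which favours the same sign in each. The count of 33 is therefore no independent support for a shared shift. In 25 of the 34 the mutant and control libraries did not overlap, 14 with all mutants above and 11 with all mutants below. Over all genes tested, 127 (0.712%) had all 8 mutant libraries above all 5 controls and 87 (0.488%) had all 8 below. The adjusted p-values of the 34 genes ran from 0.0321 to 0.0493, all close to the threshold. Leaving out any 1 control, or VDRgem 1, left 0 genes past it in edgeR, at 2724 to 3215 genes with an unadjusted p under 0.05. In all 13 fits that left out 1 library each of the 34 genes kept its sign and an unadjusted p of at most 0.000442, while the adjusted p rose to as much as 0.176. These fits share most libraries with the one that chose the genes, so a kept sign is no independent support.

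**Figure D1:**
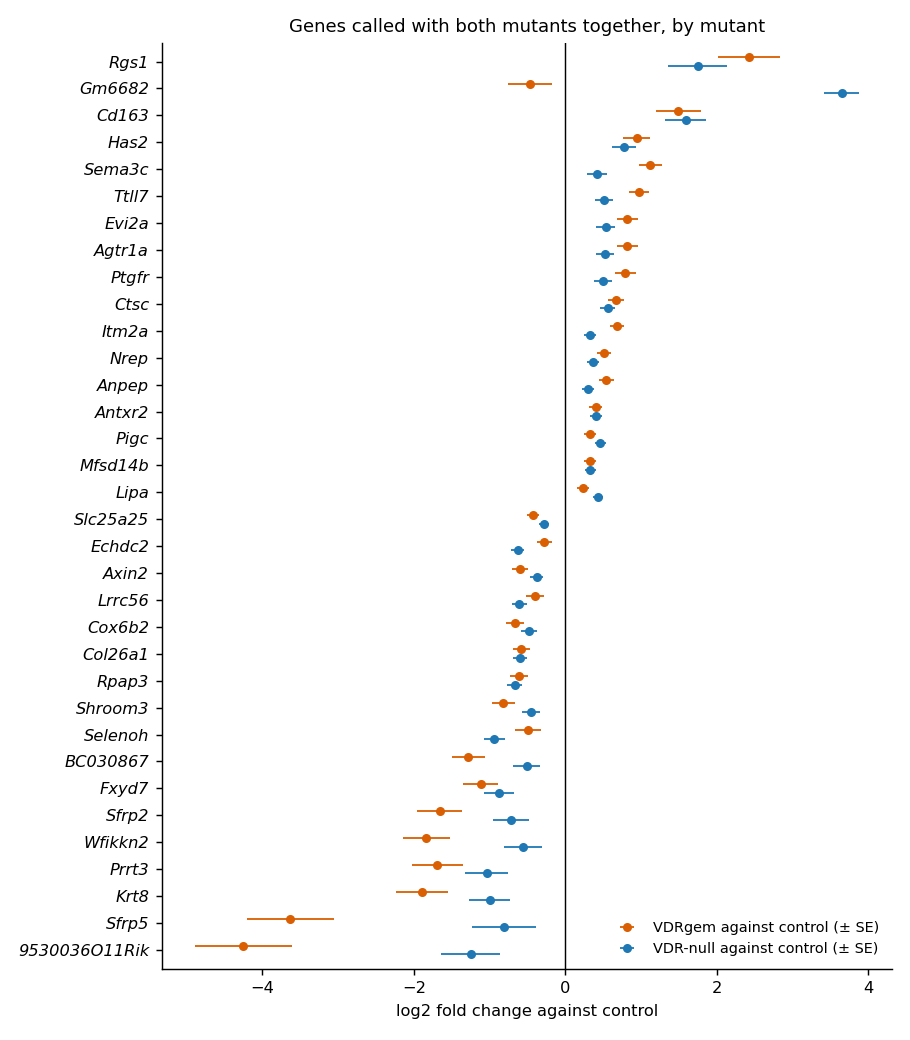
Log2 fold change against control (x axis) of the 34 genes that passed with both mutants together (y axis, sorted by their joint change), separately for VDRgem (orange) and VDR-null (blue), with bars of 1 SE. Dots of both colours lie on the same side of 0 for 33 genes, Gm6682 is the exception, and the widest gaps between colours are those of 9530036O11Rik, Sfrp5 and Gm6682.

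A stricter reading asks for a shift in each mutant by itself. Taking the larger of the p-values from VDRgem and VDR-null, 0 genes passed in edgeR's quasi-likelihood test (0%), where the smallest adjusted p was 0.885, although 629 genes (3.53%) had an unadjusted larger p under 0.05, 380 higher and 249 lower. The same rule called 0 genes with limma-voom (653 at an unadjusted p under 0.05), 0 with limma-voom and library weights (1011) and 8 with DESeq2. Those 8 were Cd163, Has2, Ctsc, Antxr2 and Nrep, which were higher, and Col26a1, Rpap3 and Cox6b2, which were lower, and all 8 were among the 34. A looser count takes genes that passed separately in each comparison. VDRgem against control called 1537 genes (8.62%) and VDR-null against control 238 (1.33%), with the same 5 controls in both. In both of them 22 genes (0.123%) passed in the same direction, 15 higher and 7 lower, and 19 passed in opposite directions. Of the 22, 13 were among the 34.

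The called genes are described by the known roles of their products, an ordering made after the genes were called and not itself tested. Several encode proteins that are secreted or sit at the cell surface and carry signals or build matrix. Has2 stood at 4.20, 5.54, 5.96, 4.19 and 5.37 CPM in controls, 11.1, 7.62 and 10.2 CPM in VDRgem and 7.46, 11.2, 8.89, 8.50 and 6.97 CPM in VDR-null. All 8 mutant libraries lay above the highest control, and the log2 fold change was 0.85 (SE 0.15, adjusted p = 0.0462), with 0.94 in VDRgem and 0.77 in VDR-null. Without VDRgem 1 and 2 it was 0.89 (adjusted p = 0.0652).

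Sema3c, a secreted guidance protein of the semaphorin family, stood at 12.2, 11.5, 13.1, 13.5 and 14.6 CPM in controls, 37.5, 22.1 and 25.04 CPM in VDRgem and 16.1, 18.9, 17.5, 19.5 and 14.9 CPM in VDR-null. No mutant library overlapped the controls, but VDR-null 5 lay just above the highest control and VDRgem 1 far above the rest. The joint log2 fold change was 0.77 (SE 0.12, adjusted p = 0.0462), and VDRgem exceeded VDR-null by 0.70 (SE 0.15, adjusted p = 0.00914). Ptgfr, the receptor for prostaglandin F, stood at 26.5, 28.3, 35.5, 27.2 and 33.8 CPM in controls, 51.8, 42.6 and 62.8 CPM in VDRgem and 38.99, 52, 36.6, 43.7 and 42.6 CPM in VDR-null. The mutants again lay above every control, by little in VDR-null 3, and the log2 fold change was 0.64 (SE 0.11, adjusted p = 0.0484). Agtr1a, a receptor for angiotensin II, ranged from 2.11 to 2.46 CPM in controls, 3.59 to 4.58 CPM in VDRgem and 2.89 to 3.67 CPM in VDR-null. Its groups did not overlap, and its change was 0.82 in VDRgem and 0.52 in VDR-null, together 0.67 (SE 0.11, adjusted p = 0.0462). Without VDRgem 1 and 2 the joint value was 0.67 (adjusted p = 0.0473) for Sema3c, 0.77 (adjusted p = 0.0473) for Ptgfr and 0.66 (adjusted p = 0.0868) for Agtr1a.

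Col26a1, a collagen of the extracellular matrix, stood at 137, 131, 135, 128 and 129 CPM in controls, 75.96, 101 and 88.8 CPM in VDRgem and 86.6, 74.3, 76.5, 99.1 and 99.1 CPM in VDR-null. The highest mutant, VDRgem 2, lay well below the lowest control. Its change was -0.58 in VDRgem and -0.60 in VDR-null, together -0.59 (SE 0.09, adjusted p = 0.0321), and the mutants differed from each other by 0.02 (SE 0.11, adjusted p = 0.913). Without VDRgem 1 and 2 it was -0.59 (adjusted p = 0.0615). Wfikkn2, a secreted inhibitor of growth factors of the myostatin family, stood at 18.9, 18.8, 23.5, 20.1 and 24.2 CPM in controls, 4.41, 7.20 and 6.09 CPM in VDRgem and 18.6, 8.87, 7.11, 18.8 and 17.9 CPM in VDR-null. VDR-null 1, 4 and 5 lay at the lower edge of the controls and the other 5 mutants far below, so that the groups only just failed to overlap. The joint change was -1.20 (SE 0.22, adjusted p = 0.0493), with -1.84 in VDRgem and -0.56 in VDR-null, and the difference between mutants was -1.28 (SE 0.30, adjusted p = 0.0132). Without VDRgem 1 and 2 the joint change was -1.19 (adjusted p = 0.113).

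Another 3 called genes of this kind were named after their values were seen. Antxr2, a receptor for collagen and laminin that anthrax toxin also uses, rose at a joint log2 change of 0.41 (SE 0.07, adjusted p = 0.0462), almost equally in each mutant at 0.40 in VDRgem and 0.41 in VDR-null. Anpep, aminopeptidase N of the cell surface, rose by 0.42 (adjusted p = 0.0484), and VDR-null 5 at 75.3 CPM lay inside the control range of 66.8 to 76.0 CPM. Prrt3 fell from 0.741 to 1.47 CPM in controls to 0.198 to 0.759 CPM in the mutants, at -1.37 (SE 0.25, adjusted p = 0.0484), with a slight overlap.

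Among 24 measured Wnt ligands, antagonists and response genes, 3 fell and 0 rose, against 0.0953% of all genes each way. This and every other gene list was chosen with earlier results of these data known. Shares of a list set beside those of all genes are therefore descriptions and no test. Axin2, a feedback inhibitor that Wnt signalling itself switches on, stood at 32.8, 34.2, 40.03, 37.3 and 36.7 CPM in controls, 24.9, 20.8 and 25.8 CPM in VDRgem and 25.1, 24.7, 26.7, 31.5 and 31.3 CPM in VDR-null. All mutants lay below all controls, with VDRgem 2 lowest and VDR-null 4 and 5 nearest to the controls. Its log2 fold change was -0.49 (SE 0.08, adjusted p = 0.0462), -0.60 in VDRgem and -0.38 in VDR-null.

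Sfrp2 and Sfrp5 encode secreted proteins that bind Wnt ligands. Sfrp2 stood at 367, 307, 248, 327 and 307 CPM in controls, 94.4, 117 and 83.5 CPM in VDRgem and 293, 133, 90.4, 201 and 228 CPM in VDR-null. The 3 VDRgem libraries and VDR-null 2 and 3 lay far below the controls, whereas VDR-null 1 lay inside the control range. The joint change was -1.19 (SE 0.22, adjusted p = 0.0484) and the difference between mutants -0.94 (SE 0.29, adjusted p = 0.0383). Sfrp5 stood at 14.7, 15.2, 9.26, 15.4 and 13.6 CPM in controls, 0.767, 1.21 and 1.29 CPM in VDRgem and 10.9, 1.11, 5.82, 11.4 and 9.59 CPM in VDR-null. It was lowest in VDRgem and VDR-null 2, intermediate in VDR-null 3, and overlapped the lowest control in the other 3 VDR-null libraries. Its joint change was -2.22 (SE 0.39, adjusted p = 0.0462), made of -3.63 in VDRgem and -0.81 in VDR-null, and in VDR-null against control the adjusted p was 0.262. Without VDRgem 1 and 2 none of the 3 Wnt genes passed, with -0.44 (adjusted p = 0.111) for Axin2, -1.31 (adjusted p = 0.105) for Sfrp2 and -2.11 (adjusted p = 0.123) for Sfrp5.

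Over the whole Wnt list members stood on both sides. Its median log2 fold change was 0.11 with the mutants together, 0.17 in VDRgem and -0.01 in VDR-null, and at an unadjusted p under 0.05 there were 9 members higher and 6 lower. Over all genes tested 9.98% were higher and 9.47% lower at that threshold. Tcf7 and Lef1, transcription factors of the pathway, stood at joint log2 changes of -0.68 and -0.40 (adjusted p = 0.0721 and 0.131), and the antagonists Dkk2 and Sfrp4 at 0.48 and 0.37 (adjusted p = 0.0789 and 0.0896), none of which passed. These 4 members were named after their values were seen.

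**Figure D2:**
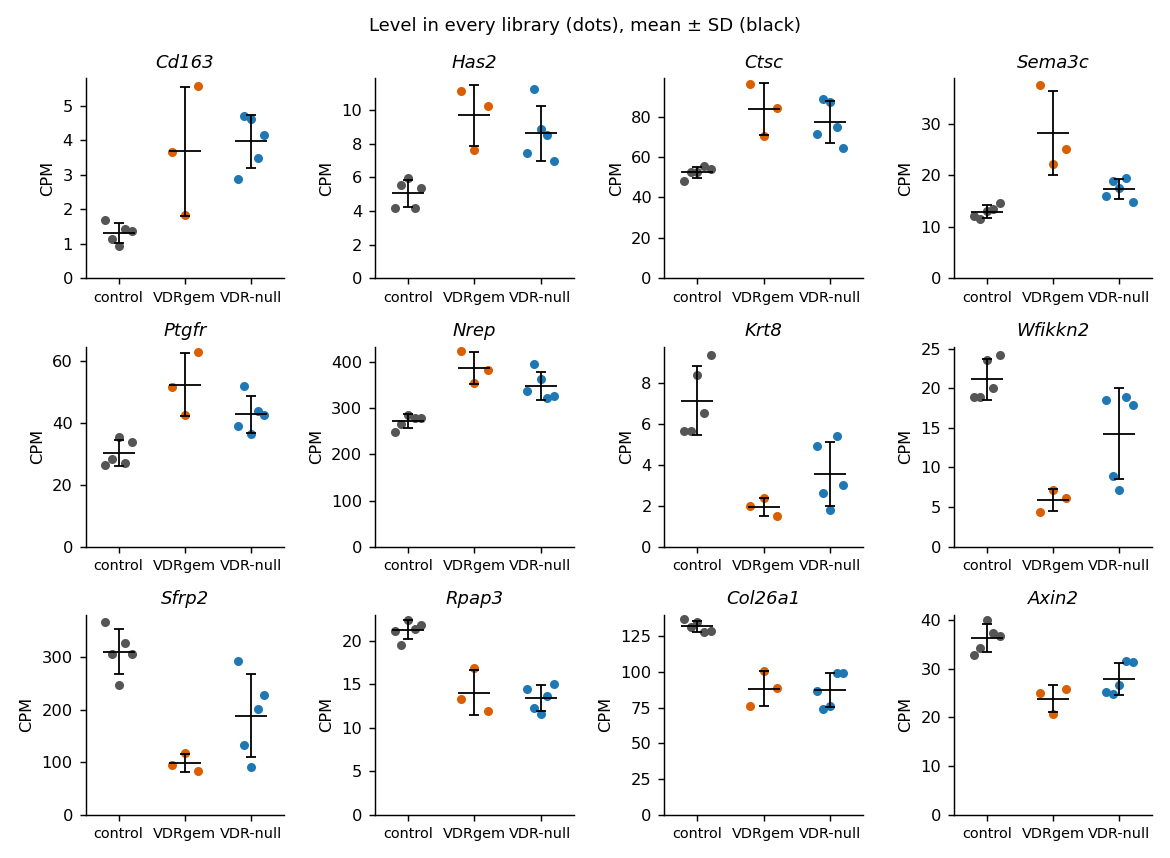
Level in CPM (y axis, from 0) of 12 called genes in every library, grouped as control (grey), VDRgem (orange) and VDR-null (blue), with the mean and SD in black. In 11 panels every mutant dot lies on one side of every control dot, by a small margin for Wfikkn2, and in the panel of Sfrp2 VDR-null 1 lies among the controls.

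Cd163, the scavenger receptor of macrophages, takes up haemoglobin bound to haptoglobin. It stood at 1.68, 1.14, 0.938, 1.43 and 1.38 CPM in controls, 3.64, 1.83 and 5.55 CPM in VDRgem and 2.87, 4.69, 4.61, 3.50 and 4.15 CPM in VDR-null. Each mutant library exceeded every control, with VDRgem 2 barely above the highest control and VDRgem 3 the highest of all. Its change was 1.49 in VDRgem and 1.59 in VDR-null, together 1.54 (SE 0.25, adjusted p = 0.0462), and 1.83 (adjusted p = 0.0128) without VDRgem 1 and 2, where VDRgem 3, the highest library, stands alone for VDRgem. The mutants differed by -0.10 (SE 0.30, adjusted p = 0.847). Ctsc, cathepsin C, which activates the proteases of immune granules, stood at 48.2, 52.6, 52.6, 55.5 and 53.96 CPM in controls, 96.3, 70.6 and 84.04 CPM in VDRgem and 71.3, 88.9, 87.5, 75.1 and 64.5 CPM in VDR-null. No mutant overlapped the controls, and the change was 0.61 (SE 0.09, adjusted p = 0.0321), 0.67 in VDRgem and 0.56 in VDR-null, with 0.61 (adjusted p = 0.0473) without VDRgem 1 and 2. Ctsc is on none of the 40 gene lists.

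Lipa, the lysosomal acid lipase, and Rgs1, which dampens signals of chemokine receptors in immune cells, are on none of the lists either and were named after their values were seen. Lipa ranged from 36.8 to 39.9 CPM in controls, 41.8 to 51.1 CPM in VDRgem and 49.7 to 53.7 CPM in VDR-null. It did not overlap between mutants and controls, with VDRgem 1 and 2 nearest to the controls, and its joint change was 0.33 (SE 0.06, adjusted p = 0.0484). Rgs1 stood at 0.226, 0.189, 0.166, 0.211 and 0.0643 CPM in controls, 1.15, 0.704 and 0.830 CPM in VDRgem and 0.544, 0.681, 0.808, 0.582 and 0.204 CPM in VDR-null. These are low levels, 7 of the 8 mutants lay above every control, VDR-null 5 lay among them, and the log2 fold change was 2.09 (SE 0.36, adjusted p = 0.0462).

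Cd163 was the only 1 of 24 measured macrophage genes that passed with both mutants together, beside the background of 0.0953% of all genes higher. At an unadjusted p under 0.05, 15 of the 24, Cd163 included, were higher and 0 lower, against 9.98% higher over all genes. The list was chosen with earlier results of these data known, so this share is a description and no test. The list's median log2 fold change was 0.32 with the mutants together, 0.36 in VDRgem and 0.41 in VDR-null, where the median over all genes was 7.7e-06. Its level was 3.49 to 3.65 in controls, 3.73 to 4.17 in VDRgem and 3.66 to 4.15 in VDR-null, so every mutant library lay above every control. Adgre1, the F4/80 antigen of tissue macrophages, stood at 14.8, 12.7, 14.1, 15.6 and 15.6 CPM in controls, 14.98, 17.4 and 27.5 CPM in VDRgem and 23.3, 28.7, 27.1, 24.2 and 19.9 CPM in VDR-null. VDRgem 1 lay within the controls and the other mutants above them, at a joint change of 0.61 (SE 0.14, adjusted p = 0.0705). Csf1r, the receptor for colony stimulating factor, stood at 0.29 and the complement gene C1qa at 0.17 (log2, adjusted p = 0.244 and 0.493; both named after their values were seen). Leaving out any 1 library put the list median between 0.21 and 0.37, and leaving out VDRgem 1 and 2 put it at 0.48.

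**Figure D3:**
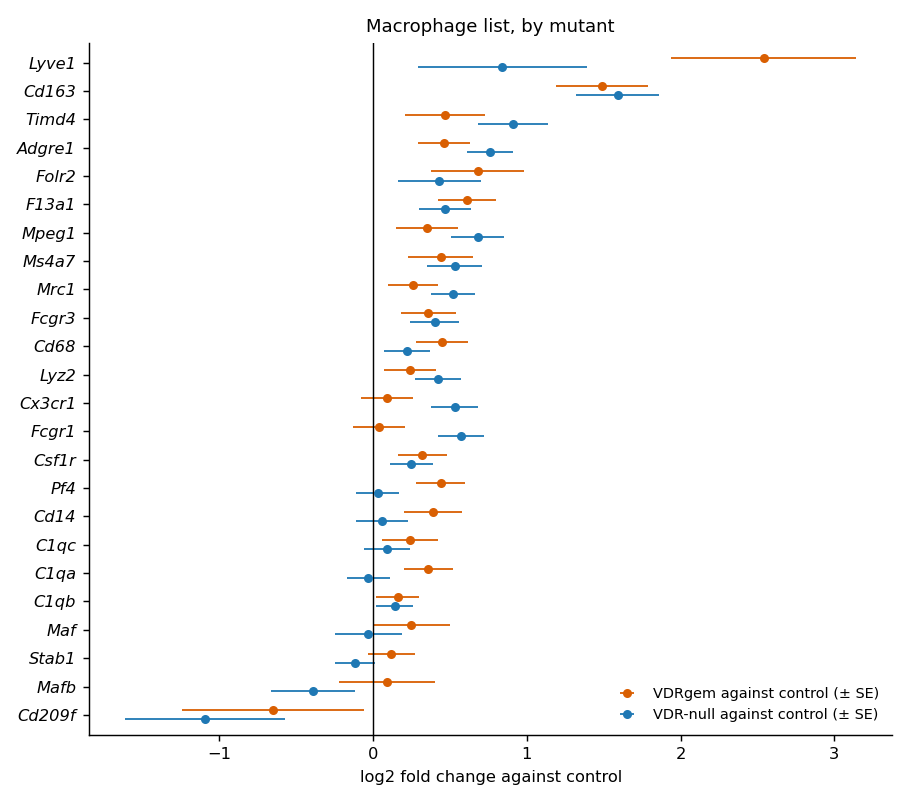
Log2 fold change against control (x axis) of the 24 measured macrophage genes (y axis, sorted by their joint change), in VDRgem (orange) and VDR-null (blue), with bars of 1 SE. Both dots lie right of 0 for 19 genes and left of 0 for Cd209f alone, and of these genes Cd163 passed with both mutants together.

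Neutrophil and lymphocyte genes were read as further immune lists. Of 15 listed neutrophil genes 9 were measured, and 0 of them passed. At an unadjusted p under 0.05, 8 were lower and 0 higher, against 9.47% lower over all genes tested. The median log2 fold change was -1.31 with the mutants together, -1.03 in VDRgem and -1.73 in VDR-null. These genes stood at low levels, which limits the reading of their changes. Controls themselves spread widely, with list levels of -1.51 to 1.01 in controls, -0.66 to -0.35 in VDRgem and -2.44 to -0.80 in VDR-null, and S100a8, an alarmin of neutrophils, stood at 0.516, 1.47, 2.07, 2.70 and 1.03 CPM in controls, 0.748, 0.792 and 0.769 CPM in VDRgem and 0.988, 0.466, 0.525, 0.893 and 0.331 CPM in VDR-null. Its mutants overlapped the controls, and the change was -1.15 (SE 0.35, adjusted p = 0.115). Among 14 lymphocyte and dendritic genes 0 passed, with a median of -0.09 with the mutants together, 0.18 in VDRgem and -0.23 in VDR-null. The pan-leukocyte gene Ptprc was at a joint change of 0.41 (SE 0.14, adjusted p = 0.151).

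Lysosome and proton pump genes, which macrophages and osteoclasts carry at high levels, passed in 0 of 20. At an unadjusted p under 0.05, 9 were higher and 0 lower, against 9.98% higher and 9.47% lower over all genes tested. The median was 0.21 with the mutants together, 0.27 in VDRgem and 0.12 in VDR-null. Ctsl, cathepsin L, was at 0.32 (SE 0.08, adjusted p = 0.0878). Osteoclast genes passed in 0 of 16, with a median of 0.13 with the mutants together, 0.44 in VDRgem and -0.09 in VDR-null.

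Krt8, Ttll7, Lrrc56 and Shroom3 have roles in epithelial structure, the cytoskeleton or cilia. Krt8 stood at 5.68, 5.68, 8.42, 6.53 and 9.40 CPM in controls, 1.98, 2.38 and 1.49 CPM in VDRgem and 4.94, 2.63, 1.78, 5.44 and 3.03 CPM in VDR-null. The mutants lay below every control, with VDR-null 1 and 4 close to the lowest, and the joint change was -1.44 (SE 0.25, adjusted p = 0.0462), -1.89 in VDRgem and -1.0 in VDR-null. The libraries rich in oral keratinocyte genes, VDRgem 1 and 2, were among the low ones, and without them the value was -1.64 (adjusted p = 0.0868). Ttll7, an enzyme that adds glutamate chains to tubulin, stood at 5.94, 7.67, 6.65, 6.70 and 6.38 CPM in controls, 15.6, 11.8 and 11.6 CPM in VDRgem and 7.89, 10.6, 10.2, 10.3 and 8.55 CPM in VDR-null. All mutants lay above all controls, at 0.74 (SE 0.11, adjusted p = 0.0321), and the change was larger in VDRgem by 0.45 (SE 0.14, adjusted p = 0.0341). Lrrc56, a protein needed for motile cilia, ranged from 17.3 to 18.3 CPM in controls, 11.3 to 15.1 CPM in VDRgem and 9.80 to 13.5 CPM in VDR-null, without overlap, at -0.51 (SE 0.09, adjusted p = 0.0484). Shroom3, an actin regulator that narrows the apex of epithelial cells, was named after its values were seen. It was at -0.64 (SE 0.11, adjusted p = 0.0462), and VDR-null 4 at 21.9 CPM lay above the lowest control at 21.3 CPM.

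The remaining genes act inside cells or have less defined roles. Rpap3, a partner of the HSP90 chaperone in assembling RNA polymerase and other complexes, stood at 21.2, 19.5, 22.4, 21.4 and 21.8 CPM in controls, 13.3, 16.9 and 11.9 CPM in VDRgem and 14.5, 12.3, 11.6, 13.6 and 15.1 CPM in VDR-null. Its mutants did not overlap the controls, and its changes were -0.61 in VDRgem and -0.67 in VDR-null, with a difference of 0.06 (SE 0.12, adjusted p = 0.753). The joint change was -0.64 (SE 0.09, adjusted p = 0.0321), and -0.76 (adjusted p = 0.0463) without VDRgem 1 and 2. Rpap3 lies on chromosome 15 from 97675097 to 97705825 on the minus strand in mm10. Of the other called genes Krt8 and Has2 are also on chromosome 15, at 4090 and 41200 kb from Vdr. Because the mutant alleles lie there, an effect of the receptor and a difference in the DNA inherited with the alleles cannot be told apart for Rpap3. How far that DNA extends was not tested, so the same limit may hold for Krt8.

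Cox6b2, a subunit of cytochrome c oxidase, stood at 19.6, 20.03, 16.5, 17.96 and 16.5 CPM in controls, 11.6, 12.6 and 10.2 CPM in VDRgem and 14.8, 10.7, 12.3, 12.6 and 14.3 CPM in VDR-null. It fell without overlap, at -0.57 (SE 0.09, adjusted p = 0.0462). Selenoh, a nuclear selenoprotein, ranged from 19.8 to 28.98 CPM in controls, 14.2 to 18.9 CPM in VDRgem and 9.03 to 15.1 CPM in VDR-null, and its change of -0.72 (SE 0.13, adjusted p = 0.0484) was made of -0.49 in VDRgem and -0.94 in VDR-null. Slc25a25, a mitochondrial carrier of ATP, ranged from 25.9 to 29.9 CPM in controls, 20.1 to 21.5 CPM in VDRgem and 20.6 to 25.2 CPM in VDR-null, at -0.36 (SE 0.07, adjusted p = 0.0484). Each of these 3 genes had all mutants below all controls.

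Nrep, known from regenerating neurons and wound fibroblasts, stood at 248, 265, 286, 279.8 and 279.8 CPM in controls, 425, 355 and 383 CPM in VDRgem and 337, 396, 364, 322 and 327 CPM in VDR-null. Itm2a, a small membrane protein, stood at 106, 123, 119, 107 and 113 CPM in controls, 204, 167 and 175 CPM in VDRgem and 126, 161, 137, 149 and 140.1 CPM in VDR-null. Both rose without overlap, Nrep at 0.44 (SE 0.07, adjusted p = 0.0462) and Itm2a at 0.51 (SE 0.07, adjusted p = 0.0321). Itm2a rose more in VDRgem, by 0.35 (SE 0.09, adjusted p = 0.0188). Evi2a, a membrane protein encoded within an intron of Nf1, ranged from 2.10 to 2.78 CPM in controls, 3.70 to 4.85 CPM in VDRgem and 3.29 to 4.03 CPM in VDR-null, and rose at 0.67 (SE 0.12, adjusted p = 0.0484).

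Among the genes named after their values were seen, Pigc, an enzyme of the membrane anchor GPI, was at 0.39 (SE 0.07, adjusted p = 0.0462), and the transporter-like Mfsd14b at 0.33 (SE 0.06, adjusted p = 0.0484), with equal changes in each mutant. Fxyd7, a regulator of the sodium pump, had a lowest, median and highest mutant of 0.412, 0.647 and 0.831 CPM against 1.16 to 1.39 CPM in controls, at -1.0 (SE 0.18, adjusted p = 0.0484). BC030867 and the mitochondrial Echdc2 were at -0.89 (SE 0.16, adjusted p = 0.0484) and -0.45 (SE 0.08, adjusted p = 0.0462), each with overlap between mutants and controls. Evi2a, Lrrc56, Pigc, Slc25a25 and 9530036O11Rik overlap a protein-coding gene on the opposite strand. Evi2a also overlaps the protein-coding gene Evi2 on its own strand, where strand cannot separate the reads. In all, 14 of the 34 called genes overlap some other annotated gene. The strand setting of the counting is not given in the sources used here, so reads of overlapping genes may be mixed.

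Of the 34 genes, 10 also differed between the mutants, where 18.8% of all genes tested did (3346). They include cases where the joint call rests on 1 mutant. Gm6682, a processed pseudogene, stood at 0.194, 0.379, 0.257, 0.211 and 0.241 CPM in controls, 0.192, 0.242 and 0.122 CPM in VDRgem and 3.51, 2.60, 2.95, 3.63 and 3.08 CPM in VDR-null. It was raised in every VDR-null library and in no VDRgem library, so its joint change of 1.59 (SE 0.22, adjusted p = 0.0321) is made of -0.47 in VDRgem and 3.65 in VDR-null and it is no shift shared by both mutants. A pseudogene can also take reads of its parent gene, and its value is uncertain for that reason. 9530036O11Rik, an antisense transcript that overlaps Shh on the other strand, stood at 0.194, 0.237, 0.287, 0.253 and 0.289 CPM in controls, 0.0192, 0 and 0.0122 CPM in VDRgem and 0.186, 0.0537, 0.0404, 0.136 and 0.0763 CPM in VDR-null. These levels are under 1 CPM, and all mutants lay below all controls. The change was -4.25 in VDRgem and -1.25 in VDR-null, together -2.75 (SE 0.42, adjusted p = 0.0321). Shh itself was at -1.43 (SE 0.41, adjusted p = 0.103). Both genes were named after their values were seen.

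Beyond the 34 genes, 9 more passed separately in each mutant in the same direction and just missed with both together, at adjusted p from 0.0577 to 0.0705. Cdt1, which licenses origins of DNA replication, stood at 16.3, 16.3, 14.6, 16.4 and 14.4 CPM in controls, 10.5, 10.3 and 9.20 CPM in VDRgem and 9.02, 6.33, 9.33, 13.3 and 9.85 CPM in VDR-null. Dlx5, a homeobox gene of tooth and bone, stood at 73.7, 67.6, 64.1, 61.7 and 55.6 CPM in controls, 46.5, 47.2 and 36.3 CPM in VDRgem and 37.9, 30.1, 42.5, 52.8 and 45.7 CPM in VDR-null. In both genes every mutant lay below every control, and the changes were -0.64 in VDRgem and -0.71 in VDR-null for Cdt1 and -0.57 in VDRgem and -0.63 in VDR-null for Dlx5. Cd36, which carries fatty acids into cells, stood at 3.39, 4.64, 5.29, 4.004 and 4.69 CPM in controls, 7.86, 5.81 and 6.88 CPM in VDRgem and 6.99, 8.83, 6.95, 5.92 and 9.92 CPM in VDR-null. It was higher in all mutants than in all controls, at 0.64 in VDRgem and 0.81 in VDR-null. The other 6, higher in both mutants, were Sgce, Pros1, Itfg1, C1galt1c1, Mdga2 and the inhibitory myeloid receptor Cd200r1, with joint log2 changes from 0.28 to 1.17, and were named after their values were seen.

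Genes of the vitamin D system were described next. None of 19 measured members passed with both mutants together, beside the background of 0.191%, and the median log2 fold change was 0.01 with the mutants together, 0.12 in VDRgem and -0.18 in VDR-null. At an unadjusted p under 0.05, 2 were higher and 1 lower, against 9.98% higher and 9.47% lower over all genes tested. The lower one was Cyp24a1, at 0.290, 0.426, 0.333, 0.506 and 0.466 CPM in controls, 0.192, 0.154 and 0.110 CPM in VDRgem and 0.186, 0.197, 0.485, 0.252 and 0.407 CPM in VDR-null. All 3 VDRgem libraries and VDR-null 1, 2 and 4 lay below every control, and VDR-null 3 and 5 lay among them. Its joint change was -0.95 (SE 0.29, adjusted p = 0.116), at levels under 1 CPM. Tested separately in edgeR, it was -1.43 in VDRgem (adjusted p = 0.0364) and -0.47 in VDR-null (adjusted p = 0.388). The sodium and calcium exchanger Slc8a1 was at 0.27 (SE 0.10, adjusted p = 0.18). Cyp27b1, which makes the active hormone, was at -0.32 and the calcium-binding protein gene Calb1 at -0.01, neither past the threshold (adjusted p = 0.415 and 0.987), and both were named after their values were seen.

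Promoters of the called genes were searched for the element that the receptor binds. RefSeq windows of 250 bases before the start site (GRCm38.p6, the assembly of the counts) were found for 25 of the 34 genes, in 30 windows. The half-site was searched as AGGTCA or GGTTCA on both strands. The whole element was searched as DR3, a pair of hexamers 3 bases apart. In DR3 each hexamer could also be AGTTCA or GGGTCA, a looser pattern than the half-site. DR3 was in 0 of the 25 genes and in 0.0444% of 27025 genes with a window. A half-site was in 5 of the 25, Krt8, Rpap3, Ptgfr, Pigc and Slc25a25, against 23.8% of all genes. The windows of the 3 with the largest fold change are shown, with the half-site in capitals as read on the gene's strand.
Krt8, chr15:102004343-102004592, minus strand: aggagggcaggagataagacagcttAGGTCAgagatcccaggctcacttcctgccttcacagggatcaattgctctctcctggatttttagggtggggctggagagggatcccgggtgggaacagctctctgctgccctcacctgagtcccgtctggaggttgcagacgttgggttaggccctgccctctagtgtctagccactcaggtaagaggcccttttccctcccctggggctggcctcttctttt
Rpap3, chr15:97705823-97706072, minus strand: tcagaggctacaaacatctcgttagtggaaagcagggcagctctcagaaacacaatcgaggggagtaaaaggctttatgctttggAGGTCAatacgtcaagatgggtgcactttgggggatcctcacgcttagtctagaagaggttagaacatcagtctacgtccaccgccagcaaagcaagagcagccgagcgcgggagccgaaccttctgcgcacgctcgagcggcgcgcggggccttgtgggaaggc
Ptgfr, chr3:151837529-151837778, minus strand: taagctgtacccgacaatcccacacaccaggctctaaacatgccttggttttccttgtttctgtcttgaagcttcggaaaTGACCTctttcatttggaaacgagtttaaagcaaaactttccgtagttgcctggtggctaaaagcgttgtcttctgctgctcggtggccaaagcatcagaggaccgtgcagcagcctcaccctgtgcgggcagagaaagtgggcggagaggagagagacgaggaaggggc
The half-site starts at position -225 from the start site in Krt8, at -165 in Rpap3 and at -170 in Ptgfr. Krt8 and Rpap3 hold AGGTCA and were lower in the mutants, and Ptgfr holds TGACCT, the same hexamer on the other strand, and was higher. A match is a description of letters and shows no binding.

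Lists of dividing cells had medians below 0 with both mutants together, unevenly over the libraries. Among 25 DNA replication genes 0 passed, 19 were lower and 0 higher at an unadjusted p under 0.05, and the median was -0.45 with the mutants together, -0.68 in VDRgem and -0.14 in VDR-null. Among 24 mitosis and spindle genes 0 passed, 22 were lower and 0 higher at an unadjusted p under 0.05, with a median of -0.55 with the mutants together, -1.05 in VDRgem and -0.11 in VDR-null. Over all genes tested 9.47% were lower and 9.98% higher at that threshold. The list level for mitosis was 4.86 to 5.32 in controls, 4.04 to 4.25 in VDRgem and 4.09 to 5.39 in VDR-null. VDR-null 2 lay with VDRgem at the low end, and VDR-null 1 and 4 lay above all 5 controls. Aurka, a kinase of the spindle, stood at 16.7, 17.4, 15.4, 19.01 and 18.5 CPM in controls, 7.17, 7.86 and 6.71 CPM in VDRgem and 19.2, 7.72, 14.02, 21.5 and 15.2 CPM in VDR-null. It was lowest in VDRgem and VDR-null 2, and VDR-null 1 and 4 lay above the highest control. Its joint change was -0.71 (SE 0.18, adjusted p = 0.0858). Between the mutants 23 of the 24 mitosis genes differed, beside 18.8% of all genes. Of the 25 DNA replication genes 13 differed, and Cdt1 was not one of them. The counts of 0 passing moved with single VDR-null libraries. Without VDR-null 4, 9 replication and 2 mitosis genes passed as lower, and without VDR-null 2, 2 replication and 5 mitosis genes did. Over all genes, 120 of 18085 passed as lower without VDR-null 4 and 91 of 17700 without VDR-null 2. With all libraries 17 of 17837 did. Without VDRgem 1 and 2, 0 of either list passed, at medians of -0.52 for replication and -0.59 for mitosis.

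Dental papilla genes passed in 0 of 17, with 8 lower and 2 higher at an unadjusted p under 0.05. Over all genes tested 9.47% were lower and 9.98% higher at that threshold. The papilla median was -0.22 with the mutants together, -0.30 in VDRgem and -0.11 in VDR-null. The homeobox gene Dlx1 stood at 50.3, 45.6, 50.8, 44.3 and 47.01 CPM in controls, 32.4, 32.9 and 33.2 CPM in VDRgem and 43.9, 32.2, 33.04, 41.6 and 44.4 CPM in VDR-null. VDR-null 5 just reached the lowest control and the other 7 mutants lay below every control, at -0.41 (SE 0.08, adjusted p = 0.063). Hedgehog genes passed in 0 of 12, with a median of -0.15 with the mutants together, -0.20 in VDRgem and -0.09 in VDR-null. The response genes Gli1 and Ptch1 were at -0.96 (SE 0.20, adjusted p = 0.067) and -0.87 (SE 0.20, adjusted p = 0.0734). For Gli1 the changes were -1.39 in VDRgem and -0.54 in VDR-null. Of 17 FGF ligands and response genes 0 passed, with Etv5 at -0.56 (SE 0.12, adjusted p = 0.063) and Etv4 at -1.22 (SE 0.26, adjusted p = 0.0688). These counts of 0 moved with single libraries too. Without VDR-null 2, 3 FGF and 2 dental papilla genes passed as lower, beside 91 of 17700 over all genes in that fit.

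Lists of fibrous matrix had medians above 0. Of 20 collagen and fibrous matrix genes 0 passed, and 9 were higher and 0 lower at an unadjusted p under 0.05. Over all genes tested 9.98% were higher and 9.47% lower at that threshold. The median was 0.24 with the mutants together, 0.45 in VDRgem and 0.15 in VDR-null. Tested separately, 7 passed as higher in VDRgem and 1 in VDR-null, where 8.62% and 1.33% of all genes passed either way. Between the mutants 6 differed, beside 18.8% of all genes. Dcn, the proteoglycan decorin, stood at 767, 704, 704, 785 and 706 CPM in controls, 933, 864 and 940.4 CPM in VDRgem and 887, 1096, 1235, 873 and 982 CPM in VDR-null. Every mutant exceeded every control, and the change was 0.39 (SE 0.09, adjusted p = 0.0705), larger in VDR-null at 0.32 in VDRgem and 0.47 in VDR-null. Matrix proteases and inhibitors passed in 0 of 18, with 13 higher and 0 lower at an unadjusted p under 0.05, beside the same shares of all genes. Their median was 0.28 with the mutants together, 0.48 in VDRgem and 0.13 in VDR-null. Tested separately, 9 passed as higher in VDRgem and 0 in VDR-null, and 8 differed between the mutants. Htra1, a secreted serine protease, was at 0.51 (SE 0.12, adjusted p = 0.0778), of which 0.96 in VDRgem and 0.06 in VDR-null. Of the 14 dental follicle genes Sfrp2 fell, as given above, and the others did not pass. Postn, a protein of the periodontal ligament, was at 0.67 (SE 0.16, adjusted p = 0.077), with 0.95 in VDRgem and 0.40 in VDR-null.

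**Figure D4:**
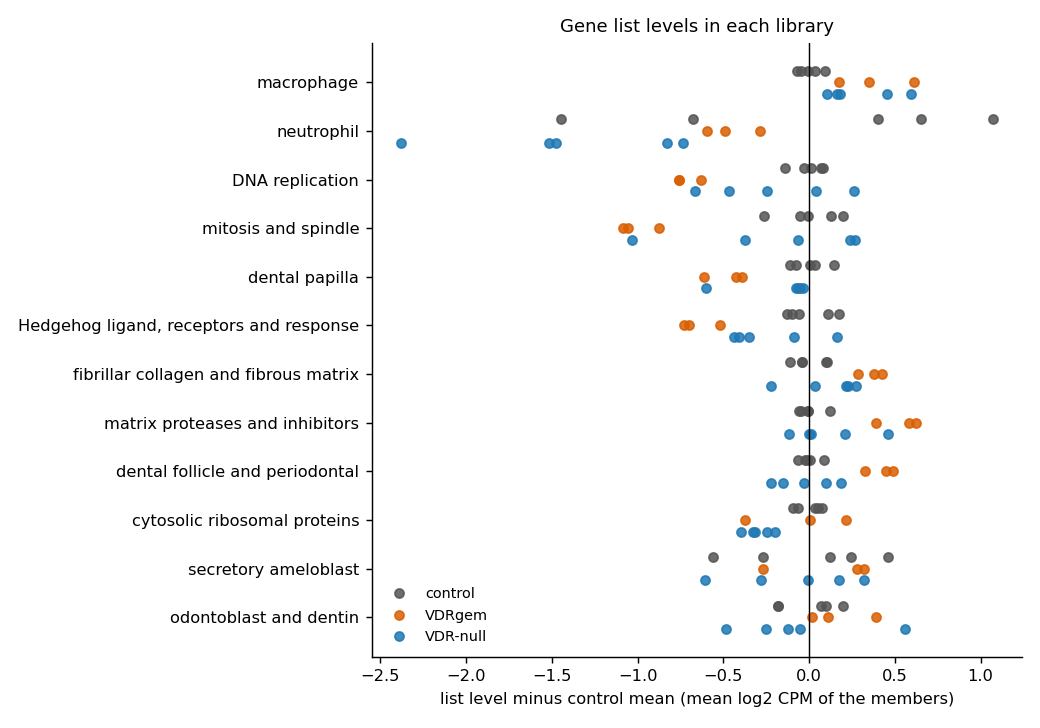
Level of 12 gene lists (y axis) in every library, as the mean log2 CPM of the members minus the control mean (x axis), with controls grey, VDRgem orange and VDR-null blue. All 8 mutants lie right of all controls for the macrophage list, while for DNA replication, mitosis and dental papilla the VDRgem dots and VDR-null 2 lie left of all controls. VDR-null 3 does so too for DNA replication and mitosis and VDR-null 5 for DNA replication, while VDR-null 1 and 4 lie right of 0 in both.

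Enamel and dentin genes had medians near 0 with the mutants together. Secretory ameloblast genes passed in 0 of 18, with a median of 0.01 with the mutants together, 0.03 in VDRgem and -0.08 in VDR-null, and overlapping list levels of 8.65 to 9.67 in controls, 8.94 to 9.53 in VDRgem and 8.60 to 9.53 in VDR-null. Odontoblast and dentin genes passed in 0 of 20, with a median of 0.11 with the mutants together, 0.23 in VDRgem and 0.0 in VDR-null. Ibsp, a mineral-binding protein of bone and dentin, stood at 482, 415, 599.8, 644 and 415 CPM in controls, 895, 770.1 and 844 CPM in VDRgem and 553, 733, 1240.0, 764 and 853 CPM in VDR-null. VDR-null 1 lay within the controls and the other mutants above them, at 0.70 (SE 0.17, adjusted p = 0.0809). Maturation ameloblast genes passed in 0 of 18, with a median of 0.13 with the mutants together, 0.28 in VDRgem and 0.02 in VDR-null. Odam, made by maturing ameloblasts, was at 0.55 (SE 0.16, adjusted p = 0.107). Tested separately in edgeR, Odam was at 0.90 in VDRgem (adjusted p = 0.0178) and 0.20 in VDR-null (adjusted p = 0.525). It differed between the mutants by 0.70 (SE 0.20, adjusted p = 0.0265).

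Ribosomal protein genes passed in 0 of 20, with a median of -0.17 with the mutants together, -0.03 in VDRgem and -0.32 in VDR-null, and Rps2 was at -0.32 (SE 0.09, adjusted p = 0.11). Unfolded protein response genes passed in 0 of 20, respiratory chain genes in 0 of 18 and interferon response genes in 0 of 18, with joint medians of 0.11, -0.03 and -0.06. Igfbp4, which binds insulin-like growth factors, stood at 679.5, 684, 622, 683 and 632 CPM in controls, 606, 522 and 496 CPM in VDRgem and 543, 463, 469, 535 and 517 CPM in VDR-null. All mutants lay below all controls, at -0.34 (SE 0.07, adjusted p = 0.0672). In 37 of the 40 lists 0 members passed with both mutants together.

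Lists that mark other tissues were uneven across libraries. Oral keratinocyte genes passed in 0 of 18, and their median of 1.49 with the mutants together, 5.15 in VDRgem and -0.68 in VDR-null rested on VDRgem 1 and 2, without which it was -0.28. Skeletal muscle genes passed in 0 of 15, with a median of 2.65 with the mutants together, 2.06 in VDRgem and 3.18 in VDR-null, and 0.76 without VDRgem 1 and VDR-null 3. Schwann cell and nerve genes passed in 0 of 15, with a median of 0.55 with the mutants together, 0.53 in VDRgem and 0.62 in VDR-null and list levels of 3.90 to 4.18 in controls, 4.29 to 4.74 in VDRgem and 3.15 to 5.35 in VDR-null. Endothelial genes and smooth muscle genes passed in 0 of 14 and 0 of 13, with medians of 0.08 and 0.18. None of the 34 called genes is a member of the keratinocyte or muscle lists.

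**Figure D5:**
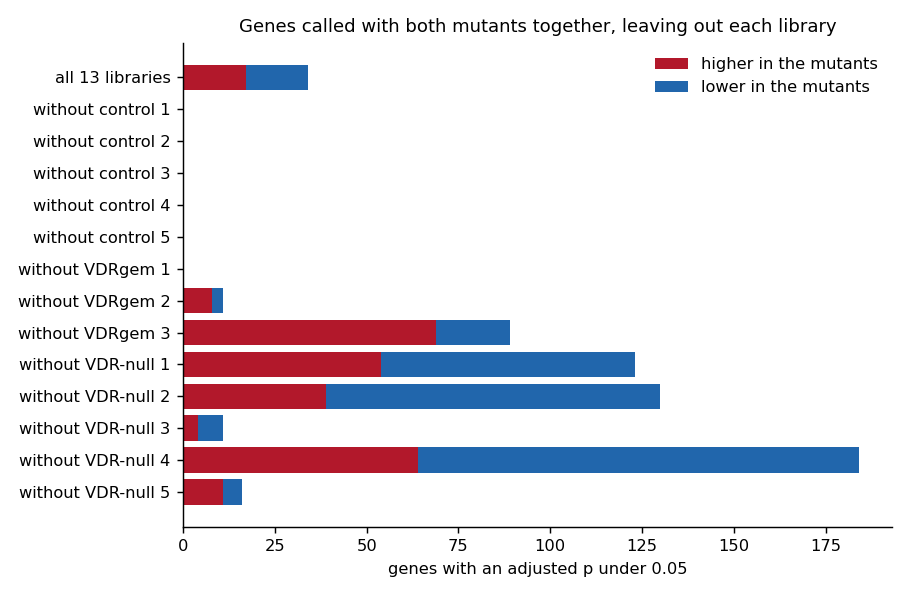
Number of genes that passed an adjusted p of 0.05 with both mutants together (x axis) using all 13 libraries and leaving out each library in turn (y axis), split into higher (red) and lower (blue) in the mutants. The count is 34 with all libraries, 0 without any 1 control or VDRgem 1, and 184 without VDR-null 4.

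The count of called genes thus moved widely with the libraries and the test. It was 11 without VDRgem 1 and 2, 6 of which were among the 34 (Cd163, Ctsc, Lipa, Ptgfr, Sema3c and Rpap3), in a fit where VDRgem is 1 library and the spread comes from the other groups. The adjusted p of the 34 genes ran there from 0.0128 to 0.123. With the oral keratinocyte level as a covariate the count was 355, and 33 of the 34 genes were among them. The 34 were chosen by p in the same libraries, so this is no independent support. That level was 3.54 to 8.82 in VDRgem and 0.79 to 2.58 in VDR-null, so the fit cannot fully separate it from genotype.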

How the data were processed

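RNA of 13 whole lower incisors was analysed, grouped by genotype label. A TruSeq kit that keeps strand was used on poly-A RNA, per the labels. The deposited values are whole read counts per gene. The submitters' processing notes list STAR 2.5.3a, HTSeq 0.6.1p1, bcl2fastq 2.20.0.422 and the build mm10. Annotation release, counting mode and strand setting: not given in the sources used here. Names and coordinates came from GENCODE on GRCm38 and promoters from RefSeq.

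All 13 libraries entered 1 edgeR 4.0.16 quasi-likelihood fit in R 4.3.3, with TMM scaling, a minimum count of 10 (filterByExpr) and no covariate. The contrast weighted each mutant by 0.5. P-values were Benjamini-Hochberg adjusted over 17837 genes, and a gene passed at an adjusted p under 0.05. A gene's shift in each mutant was tested by the larger of its p-values where the signs agreed, and each mutant against the other by the same fit. SE is the size of the log2 fold change divided by the square root of the F statistic of its quasi-likelihood test. List levels use a prior count of 2. Vdr was tested by exact permutation of log2 CPM. The procedure was also tested on simulated data.

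Members, tests and the 40 gene lists were chosen with earlier results of these data known, and lists are described by counts and medians only. The rule for naming took Vdr, up to 10 rises and 10 falls by size among passing genes at a mean of at least 1 CPM without overlap (10 and 9 were found), up to 8 genes each way by the larger p (0 were found) and 2 members per list by smallest p. Another 13 called genes are outside it. Promoters were to be searched for genes passing by the larger p, and since there were 0 of these, all called genes were searched.

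Alternatives were the mutants as 1 group, DESeq2 1.42.0, limma-voom 3.58.1 with and without library weights, other size factors, other low-count filters, robust dispersion, 1 surrogate variable (sva 3.50.0), the keratinocyte level as covariate, other thresholds and leaving out libraries; leaving out VDRgem 1 with VDR-null 3 was added after seeing the data. No library was a copy of another. Figures used matplotlib 3.10.9.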

Additional observations from a re-analysis of the deposited data

Results flagged for a closer look

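A few called genes and list levels have 1 library far from the rest of its group. The distance of that library to its nearest neighbour, as a share of the group's whole range, was 0.755 for Sfrp5 in control 3, the lowest control, and 0.729 for Rgs1 in control 5, also the lowest control. Among list levels it was 0.930 for dental papilla genes in VDR-null 2, which lay below the other 4 VDR-null libraries, 0.722 for matrix proteases and inhibitors in control 3 and 0.714 for Schwann cell and nerve genes in control 4. In all, 114 groups of values were checked and 5 stood out, and chance alone flags about 1 in 20 groups.

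For 10 of the 34 called genes the change differed between the mutants in edgeR's test of VDRgem against VDR-null. The log2 fold change of VDRgem minus VDR-null was -3.00 for 9530036O11Rik, -2.82 for Sfrp5, -1.28 for Wfikkn2, -0.94 for Sfrp2 and -0.78 for BC030867, which were lower in VDRgem. It was 0.35 for Echdc2, lower in VDR-null, and 0.35 for Itm2a, 0.45 for Ttll7 and 0.70 for Sema3c, which were higher in VDRgem. For Gm6682 it was -4.11, with opposite signs in the mutants. VDRgem 1 and 2, the libraries with high oral keratinocyte levels, enter every one of these values.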

How the results depend on the processing

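All 34 called genes kept their sign under every other test, scaling, filter and set of libraries that gave them a value, which their choice by p in the same libraries largely fixes. The count of 34 was 0 with the 8 mutants as 1 group, 1079 with DESeq2, 8 with limma-voom, 1321 with limma-voom and library weights, 0 with library totals alone, 115 without a low-count filter and 355 with the keratinocyte covariate. Library totals alone moved the median of all genes by -0.087. At an adjusted p of 0.01 and 0.1 it was 0 and 554, and 2014 by the study's stated rule (unadjusted p under 0.05, absolute log2 fold change over 0.3). It was 0 to 184 leaving out 1 library, 11 without VDRgem 1 and 2 (1 VDRgem library left, assumed to vary like the other groups), and 0 without VDRgem 1 and VDR-null 3.

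The count of genes passing by the larger p, 0 in edgeR, was 8 with DESeq2, and 337 by the study's rule, and stayed 0 in every fit that left out a library. The count of called genes that differ between the mutants, 10, was 436 with DESeq2, 3 with limma-voom, 504 with limma-voom and library weights, 0 with library totals alone, 51 without a low-count filter and 1 with the keratinocyte covariate. It was 0 and 239 at an adjusted p of 0.01 and 0.1, 987 by the study's rule, 0 to 80 leaving out 1 library, 0 without VDRgem 1 and 2 (of the 11 genes called there), and 0 without VDRgem 1 and VDR-null 3 (of 0 called). The Vdr difference of 0.25 ran from 0.16 to 0.39 leaving out 1 library, and passed without VDRgem 1 (0.39). The causes were not tested. No paired analysis was possible because the labels give no replicate numbers.

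Low counts limit Rgs1, Prrt3, Fxyd7, Cd200r1, Gm6682, Cyp24a1 and 9530036O11Rik, which stood near or under 1 CPM, Gm6682 in controls and VDRgem only.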
